A study of Mus musculus with 13 samples.

Results

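Of the 47643 genes in the deposited table of activated B cells, 2243 are annotated as antisense, that is, as noncoding RNAs read from the strand opposite another gene. This account describes the 168 of them that reached a mean normalized count of 20 or more over the 13 libraries, leaving out Nespas and the Snhg genes, and sets Whsc1-KO B cells against WT B cells. The members were chosen by their level in these same libraries, so their presence above 20 is not a finding. No read was counted for 1250 of the antisense genes in any library.

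Antisense RNAs arise at different places around a gene. Some start at the gene's own promoter and run away from it, others start inside or beyond the gene and run back across it, and a few, such as Kcnq1ot1 and Airn, are known to silence neighbouring imprinted genes on the chromosome from which they are made. Many antisense RNAs are short-lived, because the nuclear exosome and its adaptors degrade RNAs that end early or are poorly processed. Whsc1, also called Nsd2, adds methyl groups to histone H3 at lysine K36 along transcribed genes.

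The tested cells were 6 libraries of Whsc1-KO splenic B cells, and 7 libraries of WT splenic B cells stood against them. Both groups are of C57BL/6 strain and share every other step. Because embryos without Whsc1 die, blood-forming cells were taken from the fetal livers of Whsc1-KO or WT littermates, and they rebuilt the blood of irradiated RAG1-KO hosts, which cannot make mature lymphocytes. The cells therefore lacked Whsc1 in the whole transplanted blood system and not in B cells alone, while tissue of the host outside the graft was the same in both groups. Splenic cells were depleted of CD43-positive cells on magnetic beads and grown with 25 µg/ml lipopolysaccharide (LPS), a bacterial product that makes B cells divide and switch antibody class, for 48 h. The design text calls the libraries independent biological replicates.

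The libraries held 39101317 to 49443098 reads in genes in Whsc1-KO and 38881664 to 53019516 in WT. Whsc1 itself ran from 3733 to 5261 normalized counts in Whsc1-KO, against 5537 to 7459 in WT, a log2 fold change of -0.54 (adjusted p 0.000490, limma) with no overlap. The labels do not say which exons the mutation removes. Whsc1-KO replicates 4 to 6 stood apart from replicates 1 to 3 on the second principal component, so each main result is given with and without them. Xist, the RNA of the inactive X chromosome, ran from 93009 to 161721 in Whsc1-KO replicates 4 and 5 and WT replicates 1 to 5, which had no reads of Y-linked genes, while the other 6 libraries had Y-linked reads. Of 8 B cell markers 5 were called lower in Whsc1-KO, with a summed level of 235909 to 313730 in Whsc1-KO and 352831 to 409713 in WT. All 5 tested myeloid markers of 7 and 4 of 5 tested erythroid markers of 6 were called higher. Their summed levels were 2470 to 16036 in Whsc1-KO against 1054 to 2031 in WT for myeloid genes, and 2562 to 194381 against 861 to 3320 for erythroid genes. Without Whsc1-KO replicates 4 to 6, Adgre1 was the only myeloid marker still called (log2 fold change 2.11, adjusted p 0.00291, limma). Alas2 was then the only erythroid marker still called (2.14, adjusted p 0.0363, limma). T cell markers were low, with sums of 25.4 to 73.7 in Whsc1-KO and 14.1 to 47.9 in WT. Trac, the highest and the only 1 of 6 tested, averaged 29.7 in Whsc1-KO and 23.0 in WT and was not called. Of 5 plasma cell markers 2 were called higher. The part of these cell mixtures in the results on antisense RNAs was not tested. In bulk RNA, fewer cells of a type and less RNA per cell cannot be told apart.

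The libraries were made with a kit that keeps strand, per the labels, and the strand setting of the counting is not given in the sources used here. Of the 168 members, 120 share exon sequence with a gene on the other strand, among them 14 of the 15 members called higher and 31 of the 45 called lower below. Without the strand setting, reads of the 2 strands cannot be told apart with certainty there. At the Xist locus, where the antisense gene Tsix overlaps, Tsix had 0 to 3.49 normalized counts in the 7 libraries with 93009 or more of Xist.

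The promoters below are the RefSeq windows of GRCm38.p6, from 250 bases before a gene's start to 50 after it, and 84 of the 168 members have such a window. They are shown as examples of members that start beside another gene and of a member lying inside a gene. The other ways in which members lie are not shown. Capitals mark GGGCGG, the letters of a GC box, wherever they stand on either strand. They mark in the same way CCAAT, a box bound by the factor NF-Y, which no match shows to be bound here. The third motif marked is TATAAA, the core of a TATA box. The first pair is Gm15545, an antisense RNA, and Prmt1, the main enzyme that dimethylates arginines asymmetrically, which start apart from each other on chromosome 7. The windows are chr7:44986650-44986949 on the plus strand for Gm15545 and chr7:44986371-44986670 on the minus strand for Prmt1, and they share 21 bases. The third window, chr7:30729485-30729784 on the minus strand, is that of Tmem147, a membrane protein of the endoplasmic reticulum. It also holds the annotated start of the antisense RNA Tmem147os, 45 bases before the RefSeq start of Tmem147. The last, chr1:85105843-85106142 on the plus strand, belongs to A530040E14Rik, the most abundant member, whose GENCODE start lies 147 bases upstream of the RefSeq start.
Gm15545: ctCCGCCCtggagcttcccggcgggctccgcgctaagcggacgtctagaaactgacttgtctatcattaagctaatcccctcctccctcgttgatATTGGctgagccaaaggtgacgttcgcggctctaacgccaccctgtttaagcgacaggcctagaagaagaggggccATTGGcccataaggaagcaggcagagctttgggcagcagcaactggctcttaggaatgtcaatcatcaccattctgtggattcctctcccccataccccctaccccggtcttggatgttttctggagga
Prmt1: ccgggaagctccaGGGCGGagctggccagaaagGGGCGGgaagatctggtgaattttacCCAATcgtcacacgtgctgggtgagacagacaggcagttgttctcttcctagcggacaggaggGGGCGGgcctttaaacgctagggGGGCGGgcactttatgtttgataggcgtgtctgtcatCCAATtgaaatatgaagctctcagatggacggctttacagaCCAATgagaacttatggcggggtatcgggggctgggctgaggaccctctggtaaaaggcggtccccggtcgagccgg
Tmem147: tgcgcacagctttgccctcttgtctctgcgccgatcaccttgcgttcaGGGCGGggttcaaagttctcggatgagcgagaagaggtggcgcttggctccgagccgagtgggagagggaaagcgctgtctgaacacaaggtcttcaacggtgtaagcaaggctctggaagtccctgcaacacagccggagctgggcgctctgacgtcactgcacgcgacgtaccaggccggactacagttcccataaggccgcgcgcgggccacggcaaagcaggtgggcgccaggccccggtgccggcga
A530040E14Rik: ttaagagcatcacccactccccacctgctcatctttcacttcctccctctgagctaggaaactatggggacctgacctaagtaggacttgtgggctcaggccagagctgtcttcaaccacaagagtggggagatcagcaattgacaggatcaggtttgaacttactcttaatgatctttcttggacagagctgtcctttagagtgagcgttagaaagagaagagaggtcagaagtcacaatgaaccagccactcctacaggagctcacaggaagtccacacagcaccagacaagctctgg

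The Tmem147 window holds 28 CpG dinucleotides, the Prmt1 window 17, the Gm15545 window 14 and the A530040E14Rik window 1, with none of the 3 motifs in the last. Over the 84 members with a window the median was 19 CpG, against 7 over all 32851 RefSeq promoters. That background holds every window of every gene, expressed in these cells or not, while each member counts once and was chosen by its level. GGGCGG stood in 53.6% of the member windows and 35.7% of all windows, CCAAT in 29.8% and 37.4%, and TATAAA in 8.33% and 13.6%. The 14 windows of members that start beside a gene and run away from it were the richest class, with a median of 28.5 CpG and GGGCGG in 85.7%, whereas the 20 windows of members lying inside a gene had a median of 8 CpG and GGGCGG in 25%. A motif match describes the letters and is not evidence of binding.

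Most members were rare RNAs. Their median level was 72.1 normalized counts, 74 stayed under 50 and 10 reached 1000, and the 8 most abundant held 50.2% of the summed level of all 168. An opposite-strand gene was annotated for 160 members, protein-coding in 157. Per kilobase of exon in WT, the median member stood at 9.31% of the level of the gene on the other strand (quartiles 3.27% and 23.9%, over 143 pairs whose other gene had 20 or more), and 13 members lay above it. The spread between replicates was wide, with a median coefficient of variation of 25.2% in Whsc1-KO and 23.5% in WT.

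More antisense RNAs fell than rose in Whsc1-KO cells. Of 167 members tested with limma across all 13947 genes with enough reads, 15 rose and 45 fell at a Benjamini-Hochberg adjusted p under 0.05. All tested genes were called in 51.8% of cases. Among the members 8.98% were higher and 26.9% lower, where 26.1% of all tested genes were called higher and 25.7% lower, so the share that fell was near the background and the share that rose was well under it. The median log2 fold change was -0.21 for the members and -0.003 for all genes. Of the calls, 6 higher and 9 lower had a log2 fold change of at least 1 in size, where the backgrounds were 4.87% higher and 5.14% lower. The groups did not overlap for 5 members that were higher and 10 that were lower, with backgrounds of 9.03% and 10.2%. The authors' deposited table called 15 members higher and 44 lower, with backgrounds of 26.8% and 25.7%, and 58 of the 60 calls were the same. On recovered reads, edgeR called 56 members and DESeq2 59, with backgrounds of 51.4% and 54.2%.

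**Figure D1:**
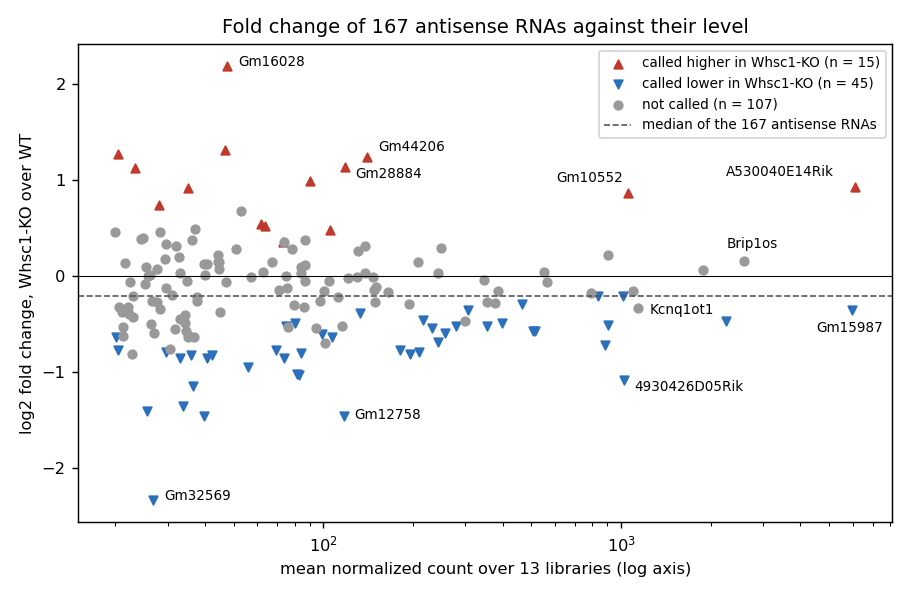
Log2 fold change of Whsc1-KO over WT (vertical axis) for each of the 167 tested antisense RNAs against its mean normalized count over the 13 libraries (horizontal, log axis). Triangles pointing up are the 15 called higher, triangles pointing down the 45 called lower and grey points those not called; the dashed line is the members' median of -0.21, and the lower calls run across the whole range of levels.

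The counts varied with the level. Among the 37 members with a mean of 200 or more, 2 rose and 19 fell (51.4% lower), where 28.9% of all tested genes at that level were called higher and 27.1% lower. Among the 57 members from 50 to under 200, 7 rose and 14 fell (24.6% lower), beside 20.2% and 29.5% of all genes. Among the 73 tested members under 50, 6 rose and 12 fell (16.4% lower), beside 20.1% and 18.7% of all genes. The difference from other genes at each level was not tested. Other noncoding classes at the same minimum level had a similar balance. The 253 lincRNAs had 7.91% called higher, 37.2% called lower and a median log2 fold change of -0.32. The 170 processed transcripts had 9.41%, 32.9% and -0.23, and the 255 genes of the provisional biotype TEC 4.31%, 27.8% and -0.31. Among 11440 protein-coding genes, by contrast, 29.3% rose and 26.5% fell, and the median was 0.02. The difference between these classes was not tested.

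The size of the fall depended on the libraries compared. The members' median difference from the WT mean was -0.04, -0.11 and -0.13 in Whsc1-KO replicates 1 to 3 and -0.26, -0.34 and -0.20 in replicates 4 to 6. In WT it was -0.11, -0.09 and -0.13 in replicates 1 to 3 and 0.04, 0.10, 0.17 and 0.12 in replicates 4 to 7. The values of replicates 1 to 3 overlapped between the groups. Without Whsc1-KO replicates 4 to 6, 8 members were called higher and 16 lower, with a median of -0.14. Over all 13947 genes 1947 were then higher and 2177 lower (29.6% in either direction). Between replicates 1 to 3 alone, 10 were called higher and 2 lower (backgrounds 6.79% and 8.76%), with a median of -0.02, and between replicates 4 and up 17 were higher and 69 lower (60.1% in either direction), with a median of -0.37. In the libraries with high Xist alone 11 were higher and 33 lower (backgrounds 22.7% and 22.8%), and in those with Y-linked reads alone 3 and 8 (4.73% and 5.90%). Of the calls over all libraries, 6 of the 15 higher and 13 of the 45 lower were also called without replicates 4 to 6. The labels do not say what the replicate numbers stand for.

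**Figure D2:**
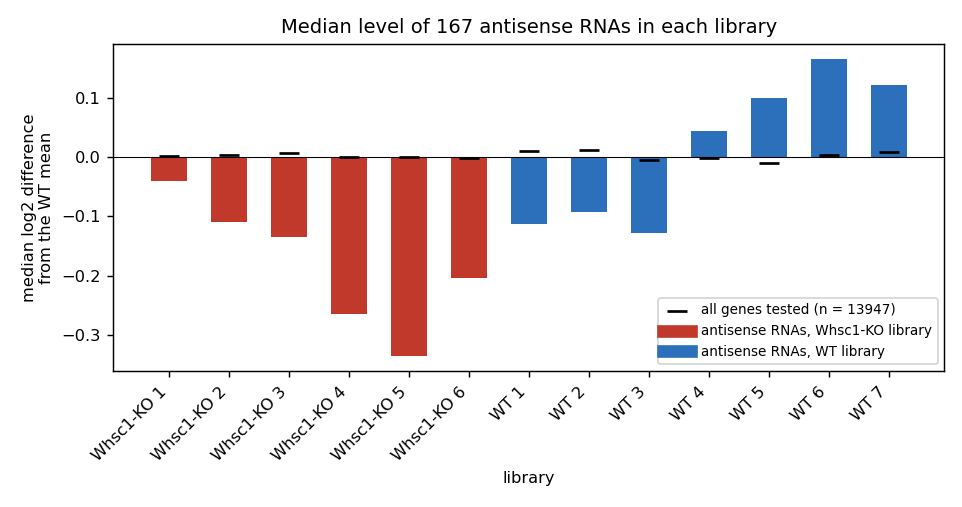
Median over the 167 tested antisense RNAs of the log2 difference from the WT mean (bars), for the 6 Whsc1-KO libraries on the left and the 7 WT libraries on the right, with the same median over all 13947 tested genes as black ticks. Whsc1-KO replicates 4 to 6 are lowest, at -0.34 to -0.20, and the bars of replicates 1 to 3 lie at -0.13 to -0.04 in Whsc1-KO and -0.13 to -0.09 in WT, while all genes stay near 0.

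Among the members that rose, 4 lie in the region around the Sp100 family locus of chromosome 1. They spread from A530040E14Rik, at -494 kb from the start of Sp140, to Gm28884, at 333 kb and past the end of Sp100. Sp100, Sp110 and Sp140 encode interferon-inducible proteins of nuclear bodies that read chromatin. A530040E14Rik (ENSMUSG00000072109.11, chr1:85105946-85114035, plus strand, GRCm38), the most abundant antisense RNA of these cells, had 7536, 8116 and 9051 normalized counts as the lowest, median and highest value in Whsc1-KO, against 3714, 4184 and 5518 in WT. Every Whsc1-KO library lay above every WT library. The log2 fold change was 0.93 ± 0.08 (SE) with an adjusted p of 2.57e-06 in limma, and it was 0.89 without Whsc1-KO replicates 4 to 6 and 0.99 in replicates 1 to 3 alone. Its exons overlap 343 bases of those of C130026I21Rik on the other strand.

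Gm16028 (chr1:85246851-85255465, plus strand), the member with the largest increase, lies inside the span of C130026I21Rik. It had 60.7, 70.0 and 119 normalized counts in Whsc1-KO against 11.5, 17.9 and 30.5 in WT, again with no overlap between the groups. The log2 fold change was 2.19 ± 0.24 (adjusted p 1.90e-05, limma). Gm10552 (chr1:85604085-85611896, minus strand), inside Sp140, had 1069, 1369 and 1807 in Whsc1-KO against 651, 740 and 952 in WT, a log2 fold change of 0.86 ± 0.12 (adjusted p 0.000138, limma). Its groups did not overlap either, and it stayed called without replicates 4 to 6, at 1.07. Gm28884 (chr1:85933247-85937332, minus strand) had 95.9, 179 and 211 in Whsc1-KO against 46.4, 77.6 and 106 in WT, where the lowest Whsc1-KO library fell within the WT range. It rose by 1.13 ± 0.23 (adjusted p 0.00128, limma), and it was 1.05 without replicates 4 to 6.

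The coding genes of the region did not all move with them. Sp110, Sp140 and Sp100 had log2 fold changes of -0.01, -0.09 and -0.28, of which only the last passed the test (adjusted p 0.0474, limma), and it was -0.08 and not called without replicates 4 to 6. A530032D15Rik rose by 1.08, 4933407L21Rik, the gene on the other strand of Gm28884, by 2.06, with a median of 22.4 normalized counts in Whsc1-KO against 4.80 in WT, and Gpr55, a receptor for lysophospholipids, by 0.65. C130026I21Rik was at 0.31 over all libraries and not called (adjusted p 0.139), but at 0.74 and called without replicates 4 to 6 (adjusted p 0.000384, limma). The other 2 members of the locus, Gm16094 beside Sp110 and Gm17017 across the start of Sp100, were at -0.28 and 0.37 and not called (adjusted p 0.107 and 0.130); without Whsc1-KO replicate 2 Gm16094 was called (adjusted p 0.0462). Set against the gene on the other strand in the same library, the ratio was called higher for A530040E14Rik, Gm16028, Gm10552 and Gm17017 and lower for Gm28884. A530040E14Rik also overlaps the span of A530032D15Rik, which lies on the other strand as well and rose by 1.08, and its ratio to that gene was not tested. The ratio of A530040E14Rik to C130026I21Rik, 0.62 over all libraries, was 0.16 and not called without replicates 4 to 6, whereas that of Gm10552 to Sp140 was 0.95 and 0.96. C130026I21Rik and A530032D15Rik are close relatives of Sp110 and Sp140, so reads that match several copies make these values uncertain.

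**Figure D3:**
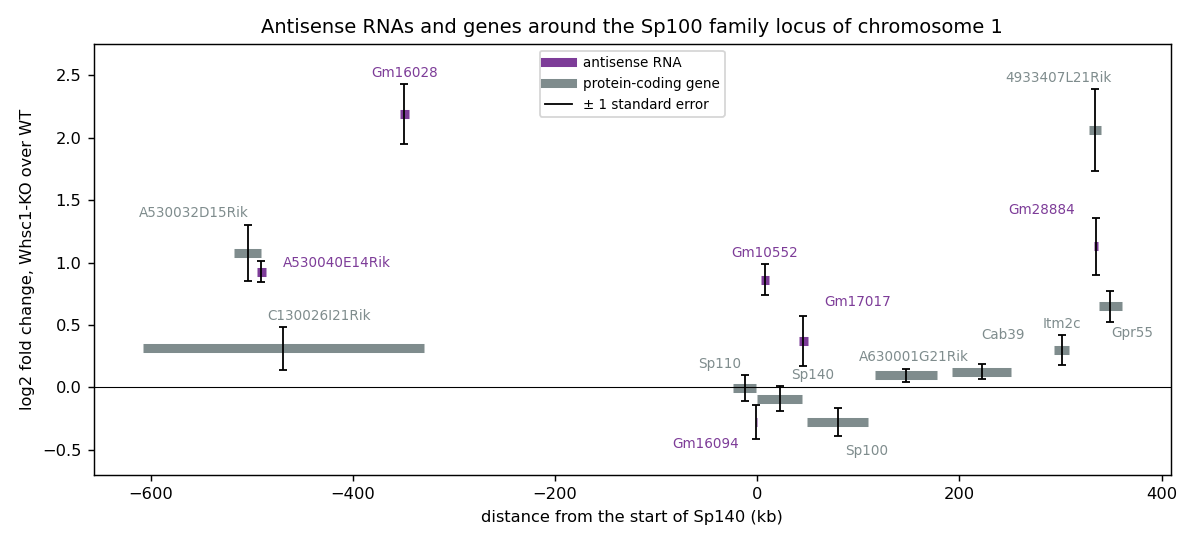
Log2 fold change of Whsc1-KO over WT (vertical axis, with 1 standard error either way) for the antisense RNAs (purple) and coding genes (grey) around the Sp100 family locus, each drawn over its span in kb from the start of Sp140 (horizontal axis). Gm16028, Gm28884, A530040E14Rik and Gm10552 stand at 0.86 to 2.19, while Sp110, Sp140 and Sp100 stand at -0.28 to -0.01.

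Elsewhere in the genome, 3 antisense RNAs rose where the gene on the other strand fell, namely Gm44206, Gm16350 and Man2c1os. Gm44206 (chr6:115824499-115842525), which runs into the end of Mbd4, a DNA glycosylase that repairs mismatched thymine and uracil, had 95.9, 224 and 281 normalized counts in Whsc1-KO against 58.8, 74.9 and 131 in WT. The groups overlapped in their lower Whsc1-KO values. It rose by 1.24 ± 0.26 (adjusted p 0.00171, limma) and Mbd4 fell by 0.34 (adjusted p 0.0162), and the log2 ratio of the pair rose by 1.58 (adjusted p 0.000234 over 2566 pairs). Without Whsc1-KO replicates 4 to 6 the rise was 0.75 and not called (adjusted p 0.0542), but the ratio, at 1.27, was.

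Gm16350 (chr8:14961066-14961586), a short RNA inside Arhgef10, had 70.6, 134 and 159 normalized counts in Whsc1-KO against 48.6, 53.7 and 78.1 in WT. Only the lowest Whsc1-KO library reached into the WT range. The rise of 0.99 ± 0.20 (adjusted p 0.00134, limma) stood beside a fall of 0.67 in Arhgef10, which had 149 at the median in Whsc1-KO against 259 in WT. The ratio rose by 1.66 and, without replicates 4 to 6, by 1.25, and was called both times. Gm16279 rose by 1.13 and Gm38037 by 0.92, with no overlap between the groups, opposite Mrps18b, a protein of the mitochondrial ribosome, and Nek2, a centrosomal kinase of mitosis, which rose by 0.55 and 1.00. Gm38037 was at 0.66 and not called without replicates 4 to 6. Atcayos and Gm26850 rose by 1.31 and 1.27 at median levels of 77.2 and 28.9 in Whsc1-KO against 25.6 and 12.1 in WT, and neither was called without replicates 4 to 6. The remaining 5 members that rose were 4930524O07Rik, Gm15879, Zfp335os, Gm12493 and Man2c1os, named after their values were seen. Man2c1os rose by 0.73 (adjusted p 0.0361, limma) and runs into the end of Sin3a, a corepressor scaffold, which fell by 0.12 (adjusted p 0.0235), and Man2c1os was not called without replicates 4 to 6 (adjusted p 0.0707).

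**Figure D4:**
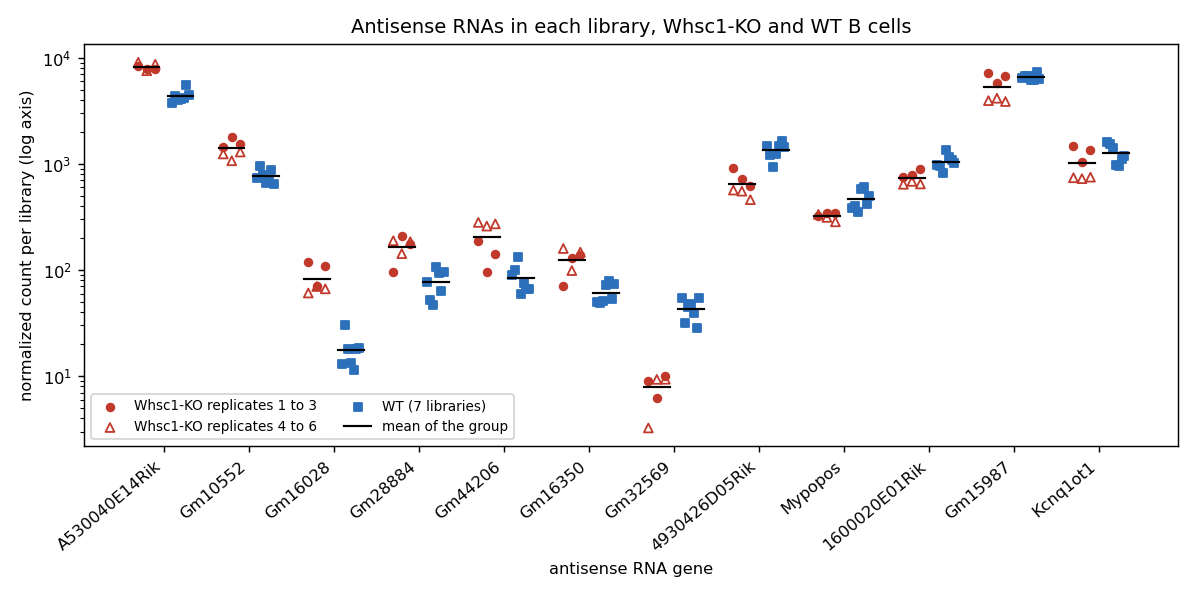
Normalized count in each library (log axis) for 12 antisense RNAs, with Whsc1-KO on the left of each gene (filled circles replicates 1 to 3, open triangles replicates 4 to 6), the 7 WT libraries on the right (squares) and the mean of each group as a bar. The groups do not overlap for A530040E14Rik, Gm10552, Gm16028, Gm32569, 4930426D05Rik and Mypopos, while for Gm15987 the triangles lie lowest, at 3867 to 4149.

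Among the members that fell, Gm32569 (chr1:164803969-164899591, minus strand) had the largest change. It had 3.25, 9.19 and 10.0 normalized counts in Whsc1-KO against 28.4, 44.4 and 55.0 in WT, so that the highest Whsc1-KO value lay well below the lowest WT value. The log2 fold change was -2.34 ± 0.26 (adjusted p 2.16e-05, limma), -2.21 without replicates 4 to 6 and -2.23 in replicates 1 to 3 alone. Dpt, the extracellular matrix gene whose end it faces, was at or near 0 in every library. Gm14029, with no gene annotated on the other strand within reach, had 8.67, 23.5 and 30.8 in Whsc1-KO against 37.1, 60.3 and 73.3 in WT and fell by 1.46 ± 0.29 (adjusted p 0.00116, limma). It was still called without replicates 4 to 6, at -1.31.

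The abundant 4930426D05Rik (chr18:21651448-21656105, plus strand) starts head to head with Klhl14, a BTB and kelch protein made in B cells. It had 460, 590 and 922 normalized counts in Whsc1-KO against 929, 1441 and 1643 in WT, with no overlap. It fell by 1.09 ± 0.16 (adjusted p 0.000158, limma), and Klhl14 fell by 0.37. The ratio was called lower, at -0.72, and without replicates 4 to 6 the RNA itself was still called at -0.83 while the ratio, at -0.44, was not. In the same way Gm16794 fell by 1.02 ± 0.21 (adjusted p 0.00119) opposite Xrn1, the cytoplasmic exonuclease that degrades RNA from its front end, which fell by 0.25. It had 29.1, 53.0 and 76.9 in Whsc1-KO against 83.7, 104 and 125 in WT. Gm15991, inside Psd3, an exchange factor for Arf6, fell by 0.96 while Psd3 fell by 1.52. Gm16586, the fourth most abundant member and the 1 member with no entry in the annotation used, had 1538, 1848 and 2118 in Whsc1-KO against 2056, 2544 and 3285 in WT, a fall of 0.48 ± 0.11 (adjusted p 0.00271, limma) that was -0.51 without replicates 4 to 6 and -0.27 and not called in replicates 1 to 3.

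The other large decreases were smaller without Whsc1-KO replicates 4 to 6. Gm12758, Gm15880, Gm11738, A230072E10Rik and Gm15133 had log2 fold changes of -1.46, -1.41, -1.36, -1.15 and -1.04. Without those libraries they were at -0.58, -0.60, -0.74, -0.89 and -0.49, and A230072E10Rik was the only one of the 5 still called. Gm15987 (chr6:128951204-128975029), second in level, had 3867, 4982 and 7203 normalized counts in Whsc1-KO against 6115, 6403 and 7316 in WT. Its 3 lowest Whsc1-KO values were those of replicates 4 to 6. The log2 fold change of -0.36 passed narrowly (adjusted p 0.0481, limma), was lost on leaving out any 1 of 10 libraries (Whsc1-KO 4, 5 or 6, or any WT; adjusted p 0.0577 to 0.117), and was 0.00 without replicates 4 to 6.

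Each member was then set against the gene on its other strand. In 146 pairs both genes were tested, and in 33 both were called. Both rose in 5 pairs and both fell in 19, while the antisense RNA rose and the other gene fell in 3, and the reverse held in 6. The direction was the same in 72.7% of the 33, and in 71.3% of the 683 doubly called pairs among 2373 other opposite-strand pairs, so the members stood close to that background. Where the other gene had fallen, 3 of 48 members rose (6.25%) and 19 fell (39.6%). Where it had risen, 5 of 28 rose (17.9%) and 6 fell (21.4%). Over all tested genes, whatever lies on their other strand, 26.1% were called higher and 25.7% lower, and the difference was not tested. Tested as a ratio within each library, 13 members were called higher and 30 lower relative to the other gene, of 146, where 43.6% of all 2566 pairs were called in either direction. Without Whsc1-KO replicates 4 to 6 the counts were 6 and 7, with a background of 17.8%.

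**Figure D5:**
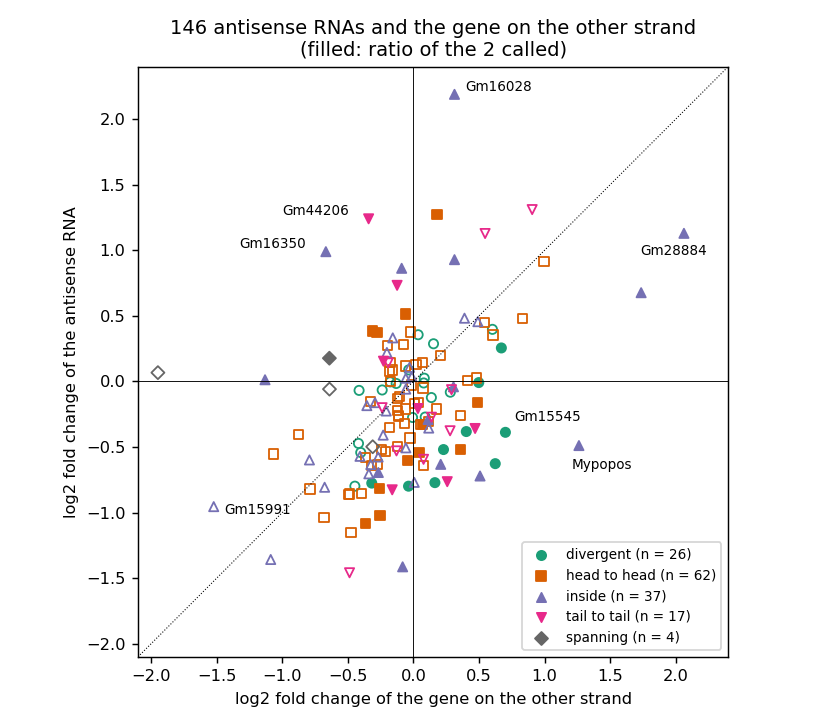
Log2 fold change of Whsc1-KO over WT for 146 antisense RNAs (vertical axis) against that of the gene on the other strand (horizontal axis), with the marker giving how the pair lies and a filled marker a ratio called different; the dotted diagonal is equal change. Mypopos at (1.26, -0.49) and Gm15545 at (0.70, -0.39) lie in the lower right, and Gm44206 at (-0.34, 1.24) and Gm16350 at (-0.67, 0.99) in the upper left.

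The members were also counted by how they lie against the other gene. Of 27 divergent members, whose starts lie within 2000 bases of the other gene's start without overlap, 0 rose and 6 fell by limma (22.2% lower). Of 64 head-to-head members 5 rose and 18 fell (28.1% lower), of 42 lying inside the other gene 5 rose and 14 fell (33.3% lower), and of 21 tail-to-tail members tested 5 rose and 5 fell (23.8% each way). Over all tested genes 26.1% were called higher and 25.7% lower, so the lower shares of these classes lay near the background. The 5 members that span the other gene gave 0 rises and 0 falls. The 8 with none recorded within reach gave 0 rises and 2 falls, those of Gm14029 and Gm16586. Gm16586 has no entry in the annotation, so its place is unknown and it may not belong to this class. For head-to-head pairs, 13 of the 14 doubly called went the same way, against 2 of 5 for divergent pairs and 3 of 6 for tail-to-tail pairs. The difference between these classes was not tested. Among the divergent pairs the ratio was called lower in 9 of 26 and higher in 0, where 43.6% of all 2566 pairs were called in either direction. The share of all pairs in each direction is not given here.

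In 3 of 26 divergent pairs the antisense RNA fell and the other gene rose, in 2 both fell and in 10 neither was called. The pairs that follow were named after their values were seen. Gm15545, whose window is printed above beside that of Prmt1, had 98.7, 105 and 137 normalized counts in Whsc1-KO against 107, 150 and 170 in WT. Prmt1 had 4846, 5506 and 6909 in Whsc1-KO against 2765, 3470 and 4578 in WT, without overlap, and rose by 0.70 (adjusted p 0.000409, limma). Gm15545 fell by 0.39 (adjusted p 0.0274), a call lost on leaving out any 1 of 6 libraries (Whsc1-KO 4, 5 or 6, or WT 4, 6 or 7; adjusted p 0.0530 to 0.0631), and the ratio fell by 1.09 (adjusted p 0.00133) and fell by 0.77 without replicates 4 to 6.

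Tmem147os, which starts in the printed Tmem147 window, had 180, 224 and 279 normalized counts in Whsc1-KO against 275, 323 and 372 in WT, where the highest Whsc1-KO value lay just above the lowest WT value. It fell by 0.52 ± 0.12 (adjusted p 0.00318, limma) and Tmem147 rose by 0.23. Their ratio did not overlap between the groups and fell by 0.75 (adjusted p 0.000658), and fell by 0.51 without replicates 4 to 6, still called. Gm16638 had 138, 149 and 156 in Whsc1-KO against 198, 282 and 313 in WT, with no overlap. It fell by 0.80 ± 0.12 (adjusted p 0.00017, limma), while Stard5, a lipid transfer protein that starts 79 bases away, was at -0.04 and not called. Among divergent pairs whose ratio fell, 4 had an antisense RNA that was itself not called: AV099323 beside Pcna, the sliding clamp of DNA replication, with a ratio of -1.25, Atad3aos beside Atad3a, a mitochondrial membrane ATPase, with -0.79, 2810001G20Rik beside Cox10, which makes heme A, with -0.51, and Gm10501 beside Lsm2, a subunit of the Lsm ring that binds U6 RNA, with -0.42.

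Outside the divergent class, Mypopos lies inside Mypop, which encodes a Myb-related repressor of transcription. It had 284, 330 and 344 normalized counts in Whsc1-KO against 350, 418 and 603 in WT, and fell by 0.49 ± 0.13 (adjusted p 0.00606, limma). Mypop had 67.4, 85.2 and 95.9 in Whsc1-KO against 23.2, 32.4 and 44.8 in WT and rose by 1.26. Neither gene's groups overlapped, and the ratio fell by 1.75 (adjusted p 5.90e-06) and fell by 1.76 without replicates 4 to 6, although Mypopos alone was then not called (adjusted p 0.0738). 1600020E01Rik, head to head with Pcbp1, a protein that binds poly(C) RNA, had 642, 714 and 892 in Whsc1-KO against 811, 1026 and 1336 in WT. It fell by 0.52 while Pcbp1 rose by 0.36, and the ratio fell by 0.88 over all libraries and fell by 0.54 without replicates 4 to 6, called both times. 3110056K07Rik fell by 0.36 (adjusted p 0.0387) opposite Psma3, a subunit of the proteasome, which rose by 0.47; the fall was lost without any 1 of 8 libraries (Whsc1-KO 2, 4, 5 or 6, or WT 4 to 7; adjusted p 0.0546 to 0.0844), and the ratio of -0.83 was at -0.63 and not called without replicates 4 to 6.

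The antisense RNAs best known for their function were not called over all 13 libraries. Kcnq1ot1, the imprinted RNA that silences genes around Kcnq1, had 725, 898 and 1464 normalized counts in Whsc1-KO against 947, 1184 and 1597 in WT, with a log2 fold change of -0.34 ± 0.19 (adjusted p 0.154, limma). It was at 0.05 without replicates 4 to 6, and it passed the test on leaving out Whsc1-KO replicate 1 (adjusted p 0.0488). In replicates 4 and up it was at -0.51 and called (adjusted p 0.00161), and in the libraries with high Xist at -0.79 (adjusted p 0.0248). Kcnq1 itself is listed at 0 in all libraries. Cdkn1c, an imprinted inhibitor of the cell cycle in the same cluster, stands outside the rule by which genes are named here. Its level was low, at 10.4, 18.1 and 21.7 normalized counts in Whsc1-KO against 4.80, 9.08 and 12.6 in WT. It rose by 0.90 (adjusted p 0.00839, limma), and by 1.08 without replicates 4 to 6 (adjusted p 0.0267, limma). Beyond Kcnq1, other genes of the cluster are not listed here, and whether Cdkn1c moved with Kcnq1ot1 was not tested. Airn, which silences the maternally expressed growth factor receptor Igf2r on the paternal chromosome, had 24.5, 29.1 and 52.9 in Whsc1-KO against 17.1, 33.7 and 36.6 in WT (0.19, adjusted p 0.520), and Igf2r was at 0.21 (adjusted p 0.0574). Gt(ROSA)26Sor, the transcript of the locus used for transgenes, was at -0.07 ± 0.18 (adjusted p 0.775). Zbtb11os1 was at 0.28 and Inafm2, which the newer annotation lists as protein-coding, at 0.04, and neither was called.

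Of the other abundant members, Brip1os had 2228, 2779 and 3340 normalized counts in Whsc1-KO against 2236, 2400 and 2687 in WT and was not called (0.15 ± 0.10, adjusted p 0.218), while Med13 of the Mediator complex, on whose end it runs, fell by 0.23. Brip1os was at -0.10 without replicates 4 to 6, and at 0.42 and called in replicates 4 and up (adjusted p 0.000912, limma). Brip1, the helicase gene for which it is named, rose by 0.43 (adjusted p 0.0171) and was at 0.17 and not called without replicates 4 to 6. 2010007H06Rik and Arhgap27os3 were at 0.06 and -0.16 and not called. Arhgap27os3 was called in replicates 4 and up (-0.46, adjusted p 0.00386) and with a score of Xist against Y-linked reads as a covariate (-0.26, adjusted p 0.0250), and it was at 0.18 and not called in replicates 1 to 3. The groups overlapped for all 3 of these.

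Nuclear RNA decay genes, the machinery that removes many antisense RNAs, were then counted. Of 27 on the list 25 were tested, and 14 rose and 1 fell, where 26.1% of all genes were called higher, with a median log2 fold change of 0.26. Among the rising were the exosome cap subunits Exosc2 (0.58) and Exosc3 (0.44), the catalytic subunit Exosc10 (0.37), its cofactor Mphosph6 (0.77) and the cap-binding proteins Ncbp1 (0.37) and Ncbp2 (0.47). Mphosph6 averaged 1349 ± 233 normalized counts in Whsc1-KO and 782 ± 79.2 in WT (SD, n = 6 and 7), with no overlap. The 1 that fell was Zfc3h1 (-0.44), which links the exosome to polyadenylated nuclear RNA, at 5758 ± 278 in Whsc1-KO and 7862 ± 1098 in WT. Without Whsc1-KO replicates 4 to 6, 5 genes of the list were called higher, where 1947 of all 13947 genes were. Ncbp2 was then at 0.23 and not called (adjusted p 0.0681, limma), and Zfc3h1 stayed lower at -0.38 (adjusted p 0.0215, limma). Whether the antisense RNAs moved with this list was not tested.

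At the level that chose the members, Gm13561 and Gm12454 lay just inside, with means over 13 libraries just above 20, and Gm15559 and Gm14302 just outside, at 19.9 and 19.7. Gm12454 ran from 13.4 to 34.5 in Whsc1-KO and from 6.00 to 25.3 in WT, and Gm13561 from 10.4 to 19.0 in Whsc1-KO and from 15.6 to 35.8 in WT. Gm15559 ran from 10.4 to 25.7 in Whsc1-KO and from 15.5 to 28.1 in WT, and Gm14302 from 9.34 to 22.3 in Whsc1-KO and from 19.0 to 34.3 in WT. The 1 member that was not tested was Gm27177 (chr14:69582164-69683286), named after its values were seen. It had 0 to 2.66 normalized counts in the 6 Whsc1-KO libraries, and 169, 203 and 93.2 in WT replicates 4, 6 and 7 against at most 2.86 in the other WT libraries.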

How the data were processed

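Stranded poly-A libraries from 13 samples were read from both ends. The tools named in the submitters' processing notes are STAR (2.5.1b), RSEM (1.2.28) and DESeq2 (1.10.1), without their roles, and GRCm38 and mm9 are named as builds. The authors deposited a signal per gene that is a count scaled by 1 factor per library: 100% of the values checked were whole multiples of 1 step within 0.05 reads. The authors also deposited a table of log2 fold changes and adjusted p-values, which is used only where it is named.

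limma 3.58.1 with a mean-variance trend was fitted in R 4.3.3 to log2(normalized count + 1), without covariates, for the 13947 genes with 10 or more in at least 6 libraries, two-sided, with Benjamini-Hochberg adjustment over all of them and a threshold of 0.05. Folds on this scale understate changes of rare RNAs. The ratio test used log2((antisense + 1)/(other gene + 1)) over 2566 pairs of tested genes on opposite strands that overlap or start within 2000 bases of each other. edgeR 4.0.16 and DESeq2 1.42.0 on recovered reads were alternatives. Spans come from GENCODE M21 (GRCm38), to which 47224 of 47643 identifiers (99.1%) matched. The fit was tested on simulated data. Tables and plots used Python 3.11.15, pandas 2.3.3 and matplotlib 3.10.9.

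Genes are named by a rule: the 8 members highest in mean, the 10 largest increases and 10 largest decreases called, those with a symbol of their own, the 2 nearest the minimum on either side, and their opposite-strand genes. Cdkn1c and Gpr55 stand outside this rule. Members, lists and tests were chosen with earlier results of these data known. Alternatives covered the pseudocount, filter, scaling, replicate block, a sex score, subsets of libraries, the minimum level and exon overlap; the subsets by sex were added after seeing the data.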

Additional observations from a re-analysis of the deposited data

Results flagged for a closer look

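Among 82 sets of values (each named member in each group), 4 held a single library far from the rest of its group, and chance alone gives about 1 in 20. A530040E14Rik was at 5517.76 normalized counts in WT replicate 6, while the other WT libraries ran from 3714 to 4448, and every Whsc1-KO library was higher still. Gm16028 was at 30.47 in WT replicate 2, against 11.5 to 18.3 in the other WT libraries, and this value too lay below every Whsc1-KO library. Gm16279 was at 23.75 in WT replicate 7, against 10.4 to 16.1 in the rest of WT. Gm11738 was at 50.59 in Whsc1-KO replicate 2, against 7.26 to 22.3 in the other Whsc1-KO libraries, which places that library inside the WT range. The call of each of these 4 genes held on leaving out any 1 library.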

How the results depend on the processing

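The count of 60 members called (15 higher, 45 lower) stayed within 1.5 times under both other pseudocounts, both other filters, TMM scaling, the sex score, edgeR (56) and DESeq2 (59), with medians of -0.26 to -0.20. On leaving out 1 library it ran from 50 to 63 (13 to 15 higher, 37 to 49 lower), the median from -0.25 to -0.18, the count of all genes called from 6283 to 7499 (3135 to 3776 higher, 3148 to 3723 lower), that of ratios called from 33 to 49 (13 to 15 higher, 20 to 36 lower) and that of nuclear RNA decay genes called higher from 12 to 17, against 14.

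Without Whsc1-KO replicates 4 to 6, 24 members were called (8 higher, 16 lower), 4124 of all genes (1947 higher, 2177 lower) against 7224 (3636 and 3588), 13 ratios (6 higher, 7 lower) against 43 (13 and 30), and 5 decay genes. In replicates 1 to 3 alone, 12 members (2 lower) and 2169 of all genes (947 higher, 1222 lower) were called, with a median of -0.018 and 2 decay genes higher. In replicates 4 and up 69 members were lower, with a median of -0.37. In the 6 libraries with Y-linked reads, a subset added after seeing the data, 11 members (3 higher, 8 lower), 1483 of all genes (660 higher, 823 lower) and 0 decay genes were called, by limma. These subsets have fewer libraries, which can lower a count, and the part of this here was not tested. In replicates 4 and up the counts were higher than over all libraries, at 86 members and 8380 of all genes. With no exon overlap recorded, 15 of 48 tested members were called (1 higher, 14 lower), and with a mean of 50 or more 9 were higher, the second from fewer members. Gm16586, which fell and whose place is unknown, is counted among the 48. Of the 15 rises, 14 were among the 119 tested members with exon overlap (11.8%, against 2.08% without it). Among pairs with exon overlap 27 ratios were called, 16 of them lower.

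The deviations of same-numbered libraries from their group means had correlations of -0.11 to 0.21 between the 2 groups. Whsc1-KO replicates 2 and 5 matched WT replicates 2 and 5 best. Such correlations cannot settle whether the numbers pair the libraries, because replicates 1 to 3 and the later ones differ within each group. With the replicate block 50 members (46 of them shared), 29 ratios (18 lower) and 12 decay genes higher were called. Of the values of the single antisense RNAs named, 964 kept their status as called or not called, 126 lost a call, 15 gained one and 2 reversed. A change of sign in a member not called over all libraries did not count as reversed. Brip1os, at 0.15 over all libraries and -0.10 without Whsc1-KO replicates 4 to 6, is an example. Kcnq1ot1, not called without the block, was called with it (-0.35, adjusted p 0.0171). Gm15987 was at 0.0022 without Whsc1-KO replicates 4 to 6, and 3110056K07Rik at 0.045 in replicates 1 to 3. The cause was not tested. Depth limits the 74 members under a mean of 50 most.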
